A study of Homo sapiens with 8 samples.

Results

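Resistant cells of clone C17.2 were compared with their parental cells across all genes that reached 1 TPM (a length-corrected share of all transcripts in a library) in at least 1 of the 4 C17.2 libraries. This left 15253 of the 60754 genes and spike-in sequences in the table. Of the 8 libraries of the study, 4 belong to C17.2, with 2 of parental and 2 of resistant cells, and the other 4 belong to a sister clone, C3.2. Both clones derive from SEM, a KMT2A-rearranged line of human B-cell acute lymphoblastic leukemia, and every group carries a miniAID-mClover3 tag knocked in at both alleles of *CTCF* and a lentiviral OsTIR1(F74G)-P2A-ZeocinR cassette. Parental cells received neither drug. Resistant cells were those that had grown for 36 days in 1 μM 5-Ph-IAA, the auxin analog that drives degradation of the tagged protein, together with 100 μg/ml Zeocin, and were collected 48 h after both were withdrawn. Resistant cells of C17.2 carry the nonsense change Q666* in *CTCF*. By the study's immunoblots they hold a truncated CTCF, and the tagged full-length protein returned beside it once the auxin analog was withdrawn. Resistant cells of C3.2 carry a missense change in the tag. A single clone therefore stands for each kind of resistance, and the auxin analog, Zeocin, long culture and truncation of CTCF cannot be told apart in this comparison. The labels do not say that the 2 libraries of a group came from separate cultures, so p-values measure only the spread between these libraries.

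CTCF is a zinc finger protein that binds DNA at sites where cohesin, a ring-shaped complex that extrudes chromatin loops, comes to rest, and it thereby sets the borders of chromatin domains. In the degron system, OsTIR1 is an F-box protein that docks on SKP1 of the SCF ubiquitin ligase and hands the tagged protein to the proteasome when the auxin analog is present. B-cell acute lymphoblastic leukemia cells resemble B-cell precursors. Such precursors assemble a pre-B receptor from an immunoglobulin heavy chain and the surrogate light chain proteins VPREB1 and IGLL1. KMT2A-rearranged cells of this kind characteristically express *HOXA9* and *MEIS1*. The integrated stress response, which recurs below, is a pathway in which kinases of the translation factor eIF2 alpha respond to amino acid shortage, heme shortage, viral RNA or unfolded proteins in the endoplasmic reticulum, and in which the transcription factor ATF4 then raises amino acid synthesis, amino acid uptake and tRNA charging.

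The nonsense change falls in the coding sequence after the zinc fingers, on chromosome 16 of GRCh38, where *CTCF* spans 67562467 to 67639177 on the forward strand. The codon of Q666, CAG in the reference and TAG after C1996T, occupies 67636848 to 67636850 in exon 11 of 12. It leaves 665 of 727 codons, or 91.5%, and removes 62 codons together with the tag that follows them. The reference coding sequence from codon 656 to codon 727, joined across exons 11 and 12 (67636818 to 67637869), is shown because its part from the capitals onward is what the truncated protein lacks. Capitals mark the changed codon.
CTCF codons 656 to 727: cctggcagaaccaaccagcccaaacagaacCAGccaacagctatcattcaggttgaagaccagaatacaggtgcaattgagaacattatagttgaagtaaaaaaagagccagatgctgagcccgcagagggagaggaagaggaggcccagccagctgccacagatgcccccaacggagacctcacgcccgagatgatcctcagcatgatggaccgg
The deposited values are per gene and do not tell the truncated from the tagged full-length transcript. *CTCF* RNA was at 35.4 and 33.7 TPM in the parental libraries and 51.1 and 54.7 TPM after selection, above both parental values (log2 fold change 0.44, standard error 0.042, adjusted p = 0.00076 by limma and the method of Benjamini and Hochberg).

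Markers that define the line were present in all 4 libraries. *PAX5* and *EBF1*, the transcription factors that fix B-lineage identity, lay between 161 and 193 TPM and between 109 and 121 TPM in the 4 libraries. *HOXA9* and *MEIS1* were present at 67.6 and 61.8 and 77.5 and 68.6 TPM in the parental libraries. Of the 12 defining markers of the line, 2, *DNTT* and *RAG1*, stayed under 1 TPM throughout. Of the 10 that were tested, 5 were lower in resistant cells and none was higher, with the largest fall in *IGLL1* (log2 fold change -2.16). Of the markers of other cell types, 6 of 10 for T cells, 2 of 8 for NK cells, 2 of 8 for erythroid cells and platelets, 5 of 10 for kidney, epithelial and stromal cells and none of 10 for myeloid cells were listed at 0 in all 4 libraries. TPM keep no record of how many reads were sequenced, so depth and the counting error are unknown. Protein-coding genes made up 39.3% to 43.3% of the TPM of a C17.2 library, small nuclear RNA genes 31.9% to 37.6% and misc_RNA genes 8.23% to 18.2%, so a few very abundant non-coding RNAs took most of the fixed total. The libraries were scaled against each other by a trimmed mean, with factors of 1.05 and 0.989 for the parental and 1.12 and 1.16 for the resistant libraries. TPM values below are as deposited, before this scaling. Log2 fold changes are resistant over parental on the scale log2(scaled TPM + 1), which understates changes of genes with low TPM. Across the tested genes, the 2 parental libraries correlated with a Pearson's r of 0.977 and the 2 resistant libraries with an r of 0.972, a description across genes, which are not independent replicates.

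RNA of 4289 of the 15253 tested genes (28.1%) changed in resistant cells at an adjusted p under 0.05 by limma with Benjamini-Hochberg adjustment. Of these, 2105 (13.8%) were higher and 2184 (14.3%) were lower. Most changes were small, since 2971 of the changed genes moved by less than 1.5-fold, whereas 447 (2.93%) moved at least 2-fold. The large changes ran mainly downward, with 352 genes at least 2-fold lower and 95 at least 2-fold higher. The median over all tested genes was 0.0015 on the log2 scale, with quartiles of -0.20 and 0.19. The groups did not overlap for 66.7% of the tested genes, so a lack of overlap on its own separates no gene from the rest. Libraries of 2 against 2 cannot reach an exact permutation p under 0.333, and all calls rest on the spread that limma pools over genes and over the 4 groups. The share called rose with RNA level, from 9.8% of genes under 1 TPM to 50.4% of genes over 100 TPM, and it was 33.6% for protein-coding genes, 16.8% for lncRNA genes and 5.37% for small nuclear RNA genes. Leaving out parental library 1, parental library 2 or resistant library 2 lowered the count of changed genes to 2434, 2586 and 2695. The balance of directions depended on the scaling. Genes that were higher made up 49.1% of the changed genes, 64.6% of them when TPM were rescaled over protein-coding genes and 75.1% of them on TPM as deposited, where the median of all tested genes shifted to 0.14. With a pseudocount of 0.1 in place of 1, 757 genes passed the threshold at 2-fold or more.

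**Figure D1:**
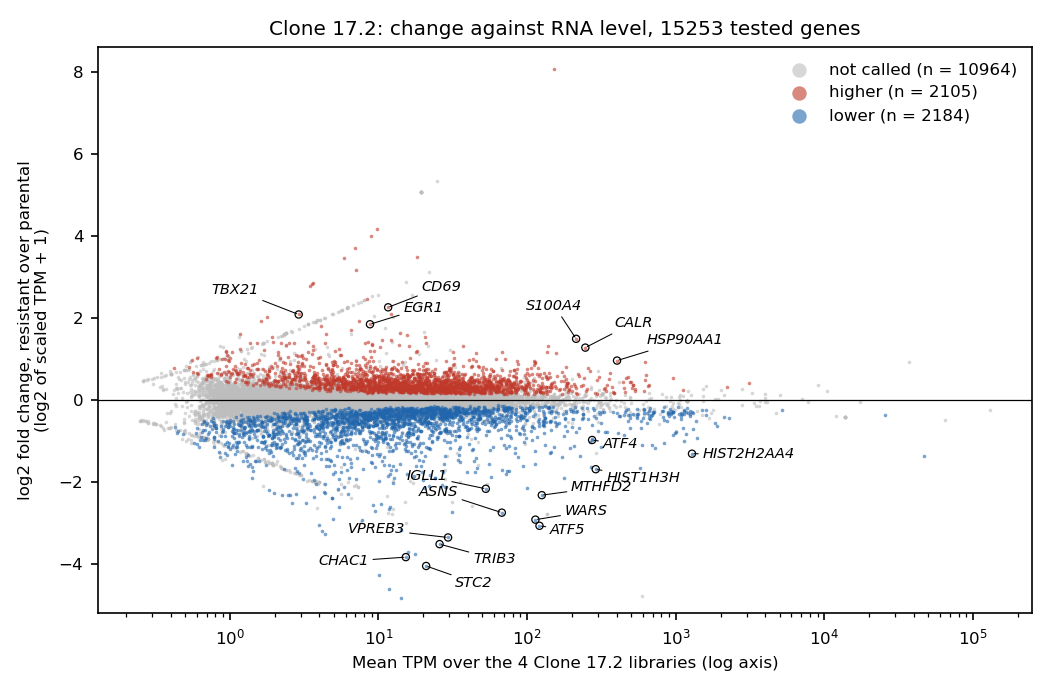
Log2 fold change of resistant over parental cells against mean TPM (log axis) for each of the 15253 tested genes of C17.2, with genes past the threshold in red (2105 higher) and blue (2184 lower). Black rings mark the named genes, from the fall of *STC2* at -4.04 to the rise of *CD69* at 2.26, and the gray diagonals are genes detected in a single library.

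Among protein-coding genes with a mean of at least 5 TPM in the higher group and no overlap between the groups, 10 of the 15 largest falls belonged to the lists of stress, synthetase, amino acid synthesis and transporter genes. *STC2* (ENSG00000113739.10, chromosome 5, 173314723 to 173328447), which encodes a secreted glycoprotein induced by that response, went from 40.9 and 39.5 TPM in the parental libraries to 1.47 and 1.85 TPM in the resistant libraries. *CHAC1* (chromosome 15, 40952962 to 40956512), an enzyme that breaks down glutathione, went from 29.7 and 28.9 to 1.27 and 1.22 TPM. *TRIB3*, a pseudokinase that restrains ATF4, went from 49.4 and 46.4 to 3.67 and 3.63 TPM. In all 3 genes the replicates lay close together and the groups were far apart, with log2 fold changes of -4.04, -3.83 and -3.51 and adjusted p values of 1.08e-05, 1.7e-05 and 5.52e-06 (limma). Of the other members of the 15 largest falls, *ATF5*, *SLC7A11*, *WARS*, *SLC6A9*, *ASNS*, *GPT2* and *SESN2* come from the same lists, and *VPREB3* comes from the pre-B receptor list. *SPNS3*, a member of the spinster transporter family, fell from 35.2 and 32.1 to 1.5 and 2.01 TPM and *PHYHD1*, a dioxygenase, from 25.8 and 26.1 to 2.93 and 1.6 TPM. *PAG1*, an adaptor that recruits the kinase CSK to the membrane, fell from 16.8 and 17.4 to 1.91 and 2.06 TPM. Their log2 fold changes were -3.75, -3.17 and -2.70 (largest adjusted p = 0.000109 by limma). The entry with the largest fall, *AC022506.1*, had 27.9 and 12.5 TPM in parental cells and 0 in both resistant libraries. It overlaps *DDIT3* on the same strand, and reads of the gene pair may have been divided between them. At the extreme, 21 genes were at 1 TPM or more in both parental libraries and at 0.1 TPM or less in both resistant libraries, 6 of them protein-coding, while the reverse held for 24 genes, none of them protein-coding. *INHBE*, an inhibin subunit gene chosen after its values were seen, was one of the 6, with 5.26 and 5.02 TPM in parental cells and 0.05 and 0.09 TPM after selection. Several of the 24 genes were copies of U6 RNA, each listed at 28.3 and 49.2 TPM in the resistant libraries. Reads may have been divided among these copies, so the 24 genes are not all separate signals.

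The 15 largest rises, chosen by the same rule, were smaller than the falls and included *CD69*, immediate early genes and chaperone genes. *CD69* (chromosome 12, 9752486 to 9760901), an early activation antigen of lymphocytes, rose from 3.54 and 2.48 to 19.6 and 20.9 TPM (log2 fold change 2.26, standard error 0.11, adjusted p = 5.41e-05 by limma). *TBX21* (chromosome 17, 47733236 to 47746122), the T-box transcription factor T-bet, went from 0.4 and 0.34 TPM to 5.48 and 5.4 TPM, with a log2 fold change of 2.08. *EGR1*, an immediate early transcription factor, rose from 2.79 and 3.02 to 14.8 and 14.5 TPM. In each of them both resistant libraries lay well above both parental libraries. *S100A4*, a calcium-binding protein, was by far the most abundant gene of this group and went from 104 and 101 to 321 and 328 TPM (log2 fold change 1.49, standard error 0.037). *TIMP1*, an inhibitor of matrix metalloproteinases, rose from 9.68 and 8.83 to 31.6 and 32.4 TPM, and *EMP1*, a membrane protein, from 6.44 and 6.8 to 24.8 and 24.4 TPM. *AK5*, an adenylate kinase, rose by 2.09 on the log2 scale with resistant libraries that were less alike, at 17.3 and 24.3 TPM. The remaining rises were those of *ZFAND4* (1.71), *FRMPD1* (1.60), *NELL2* (1.45), *FOS*, *HSPA1A* and *SDF2L1*. *FGFBP2*, whose log2 fold change of 2.47 was the largest, lies within the span of *PROM1*, a far more abundant gene, and *SULT1A4* (1.41) has a near-identical copy, so both values are uncertain.

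**Figure D2:**
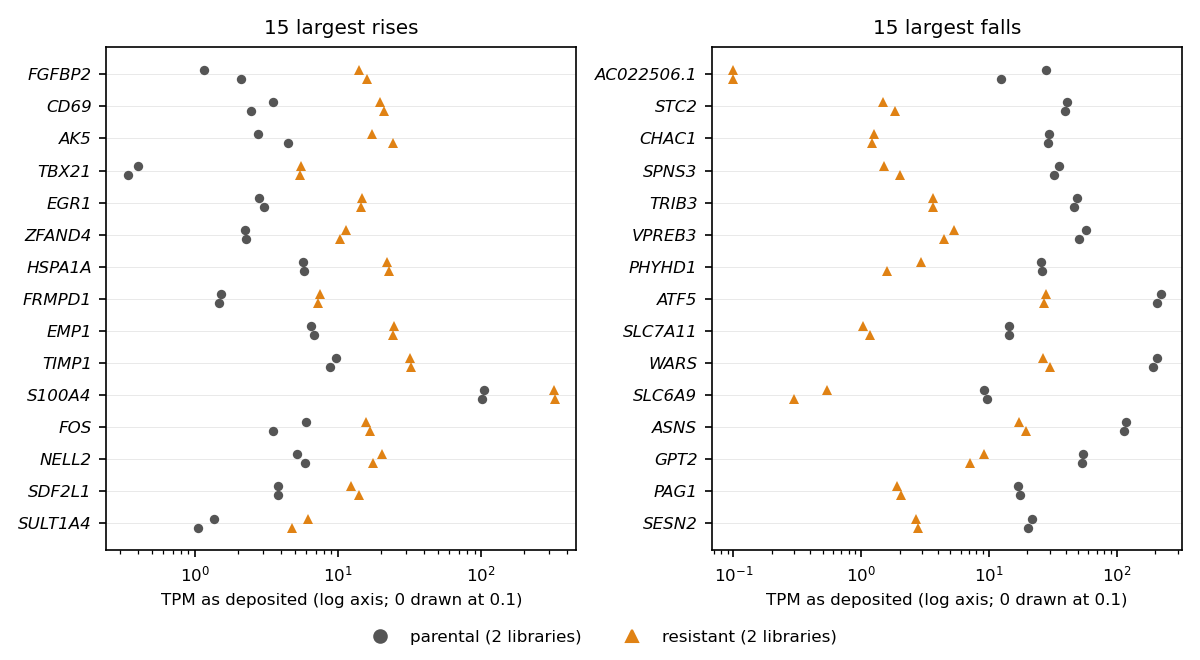
TPM as deposited (log axis, with 0 drawn at 0.1) in each C17.2 library for the 15 largest rises (left) and the 15 largest falls (right) among protein-coding genes. Gray circles are the 2 parental and orange triangles the 2 resistant libraries, and the rule that chose the 30 genes required that the groups do not overlap. The falls span a wider range than the rises, down to -4.04 for *STC2* on the log2 scale.

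Transcription factors and effectors of the integrated stress response were lower in resistant cells. Of 20 tested genes, 15 were lower and none was higher, with a median log2 fold change of -1.67 against 0.0015 over all tested genes. *ATF4* itself, chosen with *DDIT3* after its values were seen, went from 361 and 337 TPM to 197 and 199 TPM (log2 fold change -0.98, adjusted p = 2.83e-05 by limma). All 6 tested transcription factors of the list fell. *ATF5*, a factor of the same family whose translation also rises under stress, showed the largest of these falls, from 221 and 208 to 28.1 and 27.2 TPM (-3.07, standard error 0.076), and *DDIT3*, which encodes the pro-apoptotic factor CHOP, fell from 34.6 and 35.4 to 7.2 and 9.66 TPM (-2.09). Of 10 tested effectors 9 fell, by a median of -2.48. *SESN2*, a leucine sensor and inhibitor of mTORC1, went from 21.6 and 20.1 to 2.67 and 2.79 TPM, and *STC2*, *CHAC1* and *TRIB3* head the list. RNA of the 4 kinases of eIF2 alpha, *EIF2AK1* to *EIF2AK4*, did not pass the threshold, with log2 fold changes from -0.11 to 0.18. Phosphorylation of these kinases or of eIF2 alpha was not measured in these data.

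Genes of amino acid supply were lower as well. Of 20 tested enzymes of amino acid synthesis and one-carbon metabolism, 12 were lower and 2 were higher, with a median of -1.22. *ASNS*, asparagine synthetase, fell from 119 and 114 to 17.4 and 19.7 TPM (log2 fold change -2.75, adjusted p = 5.52e-06 by limma) and *GPT2*, the mitochondrial alanine transaminase, from 54.5 and 53.2 to 9.17 and 7.17 TPM. *PSAT1*, in serine synthesis, fell from 164 and 153 to 39 and 39.7 TPM and *MTHFD2*, in the mitochondrial folate cycle, from 208 and 204 to 44.6 and 45.8 TPM. *MTHFD1*, the cytosolic enzyme of the folate cycle, chosen after its values were seen, stood at 77.4 and 77.7 TPM in parental and 77.8 and 77.8 TPM in resistant cells (-0.16, adjusted p = 0.146 by limma). The 2 higher members were *ALDH18A1* (0.17) and *OAT* (0.52), both in the path to proline and both chosen after their values were seen. The call of *ALDH18A1* was lost with each library of C17.2 left out (adjusted p from 0.123 to 0.155 by limma) and that of *OAT* without parental library 1 (0.45, adjusted p = 0.0529 by limma). Among 15 tested amino acid transporters 12 were lower and none was higher, with a median of -1.17. *SLC7A11*, the cystine importer, fell from 14.4 and 14.3 to 1.03 and 1.18 TPM and *SLC6A9*, a glycine transporter, from 9.23 and 9.66 to 0.54 and 0.3 TPM, while *SLC7A5*, the large neutral amino acid transporter, fell from 104 and 100.0 to 33.6 and 34.8 TPM. Transfer RNA synthetases of the cytosol were mostly lower. Of 20 cytosolic enzymes 14 were lower and 1 was higher (median -0.71), led by *WARS* for tryptophan, which fell from 206 and 192 to 26.7 and 30.3 TPM (-2.92), *CARS*, *GARS* and *SARS* (-1.74, -1.73 and -1.62). Of 17 mitochondrial enzymes none was lower and 4 were higher (median 0.13), a called share of 23.5% beside 28.1% of all tested genes.

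Promoters of these genes were searched for TGATGNAA on both strands, the core of the C/EBP-ATF response element to which ATF4 binds with a C/EBP partner. Promoters were taken from RefSeq (GRCh38.p14) as 250 bases before to 50 bases after the start, and 9681 of the 15253 tested genes had one. The motif occurred in 14 of the 43 promoters (32.6%) of stress, synthetase, synthesis and transporter genes that were lower, in 1 of the 30 (3.33%) of such genes that were not lower and in 165 of the 9681 promoters (1.7%) of all tested genes. These lists were chosen with earlier results of these data known. The genes not lower draw on mitochondrial synthetases and eIF2 alpha kinases, none of which was lower. What the make-up of the lists adds to this contrast was not tested. It occurred in 19 of 224 promoters (8.48%) of genes at least 2-fold lower and in none of 56 promoters of genes at least 2-fold higher. Heat shock, sterol, CTCF and E-box motifs were also searched in these promoters. The heat shock motif occurred in 2 of 12 promoters of higher heat shock genes (0.289% of all tested genes). The sterol motif occurred in none of 12 promoters of higher sterol genes (1.08% of all). The CTCF motif occurred in 2.68% of genes at least 2-fold lower, 5.36% at least 2-fold higher and 2.91% of all. For the E-box these values were 8.48%, 7.14% and 10.4%. All these shares are descriptions of letters in a window, and they do not show binding. The sites of the listed genes are printed with the bases around them, read on the strand on which the motif reads TGATGNAA, because this stretch of letters is what the promoters of 14 lower genes had in common. The positions are those of GRCh38.p14, and capitals mark the motif.
CHAC1, chr15:40953252-40953279, reverse strand: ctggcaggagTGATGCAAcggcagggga
ASNS, chr7:97872459-97872486, reverse strand: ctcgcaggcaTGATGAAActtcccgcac
CARS, chr11:3057408-3057435, forward strand: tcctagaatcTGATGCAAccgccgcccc
MTHFD1L, chr6:150866347-150866374, forward strand: ccgccggctcTGATGCAAtcgcgccggg
ATF3, chr1:212565206-212565233, forward strand: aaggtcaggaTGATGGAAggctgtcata
IARS, chr9:92293693-92293720, forward strand: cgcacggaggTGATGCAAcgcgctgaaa
SLC7A1, chr13:29595664-29595691, reverse strand: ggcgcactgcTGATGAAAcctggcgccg
AARS, chr16:70289676-70289703, forward strand: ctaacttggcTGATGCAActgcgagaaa
MARS, chr12:57488054-57488081, reverse strand: aatccctcgcTGATGCAAccggaaccgg
GOT1, chr10:99430805-99430832, forward strand: ctgccgagaaTGATGCAAccaatgcaat
NARS, chr18:57621805-57621832, reverse strand: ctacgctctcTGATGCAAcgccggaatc
SLC38A1, chr12:46266503-46266530, reverse strand: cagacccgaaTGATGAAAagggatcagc
TARS, chr5:33440957-33440984, reverse strand: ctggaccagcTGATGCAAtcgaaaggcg
YARS2, chr12:32756077-32756104, reverse strand: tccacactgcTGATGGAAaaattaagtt
The genes stand in the order of their log2 fold changes, from -3.83 for *CHAC1* to -0.66 for *TARS* among the lower genes, and those not described above were chosen for the motif, after their values were seen. *YARS2*, a mitochondrial synthetase, was the member with the motif that did not pass the threshold (-0.15). In *SLC3A2*, which was also lower, the motif lay too near the end of the window to be printed with its flanks. The central base, where the search allowed any letter, was C in 9, A in 3 and G in 2 of the 14 printed sites.

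Chaperones rose, in the endoplasmic reticulum as well as in the cytosol. Of 17 tested chaperones and folding enzymes of the endoplasmic reticulum, 15 were higher and none was lower, with a median of 0.56. *CALR*, calreticulin, rose from 140.0 and 125 to 352 and 368 TPM (log2 fold change 1.28, adjusted p = 1.95e-05 by limma). *HSP90B1*, or GRP94, rose from 76 and 77.5 to 186 and 202 TPM and *HSPA5*, or BiP, chosen after its values were seen, from 26.9 and 24.7 to 63.4 and 66.5 TPM. *SDF2L1*, a cofactor of BiP, rose by 1.41 from a low level. The sensors and effectors that report unfolded proteins ran the other way, and all 3 that were tested fell. *ERN1*, which encodes IRE1, went from 10.9 and 9.92 to 1.92 and 2.69 TPM (-1.90), and *XBP1* and *ATF6*, chosen after their values were seen, changed by -0.42 and -0.35. The call of *ATF6* was lost with each of the 4 libraries left out in turn (adjusted p from 0.0558 to 0.101 by limma). The list of endoplasmic reticulum-associated degradation was mixed, with 4 of 16 higher and 5 lower. Its largest falls were those of *HERPUD1*, from 95.6 and 80.0 to 24.9 and 26.7 TPM, and *EDEM1*, from 66 and 63.6 to 25.3 and 27.6 TPM. Of 13 heat shock genes 12 rose and 1, the transcription factor gene *HSF1* (-0.31), chosen after its values were seen, fell, with a median of 0.92. The call of *HSF1* was lost without parental library 1 or either resistant library (adjusted p from 0.0801 to 0.115 by limma). *HSPA1A* and *HSPA1B*, the inducible HSP70 genes, rose from 5.69 and 5.82 to 21.9 and 22.6 TPM and from 10.4 and 8.98 to 28.9 and 23.8 TPM, and since their sequences are nearly the same, reads may be divided between them. *DNAJA1*, an HSP40 cochaperone, rose from 43.7 and 42.9 to 96.5 and 101 TPM, and *HSPB1*, the small heat shock protein HSP27, from 94.1 and 85.5 to 217 and 228 TPM. The abundant *HSPA8* and *HSP90AA1*, both chosen after their values were seen, rose by 0.92 and 0.96.

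**Figure D3:**
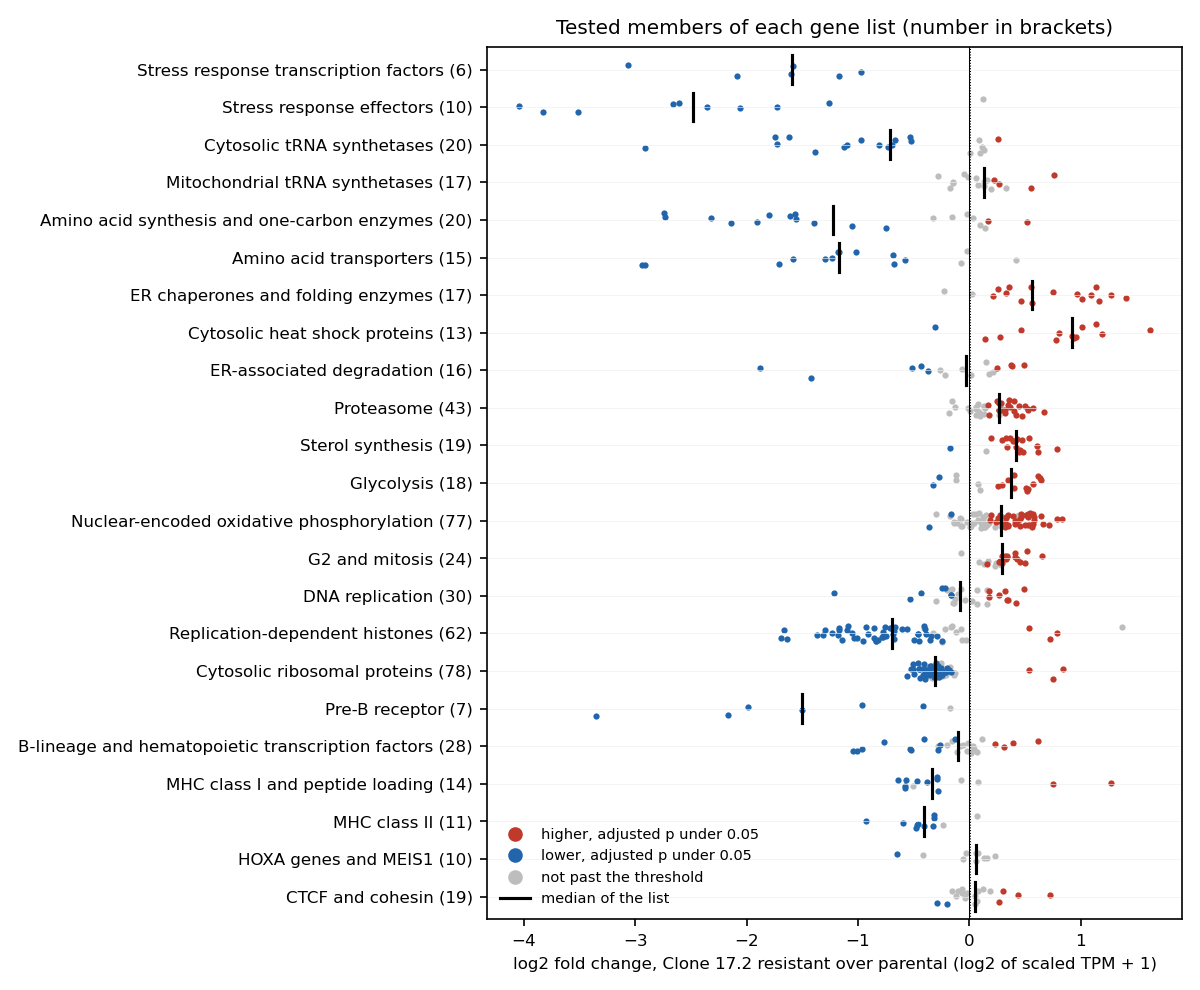
Log2 fold change of each tested member (points) and the median (black bar) of 23 gene lists or parts of lists in C17.2, with the number tested in brackets. Red and blue points passed the threshold, gray ones did not, and the dotted line is the median of all tested genes, at 0.0015. The lists of stress and amino acid genes, histones and the pre-B receptor lie to the left and those of chaperones and sterol synthesis to the right.

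Sterol synthesis rose almost throughout the pathway. Of 19 tested genes 17 were higher and 1, the regulator *SREBF2*, chosen after its values were seen, was lower, with a median of 0.42. The call of *SREBF2* (-0.17) was lost without either parental library or resistant library 2 (adjusted p from 0.0711 to 0.0857 by limma), and its value was -0.11 with quantile normalization, -0.085 after rescaling over protein-coding genes and -0.0094 on TPM as deposited (adjusted p = 0.172, 0.174 and 0.913 by limma). *HMGCS1*, which makes HMG-CoA, went from 75.2 and 68.7 to 135 and 145 TPM (0.79), *IDI1*, an isomerase of isopentenyl diphosphate, from 47.4 and 44.5 to 77.9 and 80.4 TPM (0.61) and *SQLE*, squalene epoxidase, from 29.6 and 26.9 to 45.2 and 47.2 TPM (0.53, largest adjusted p of the 3 = 0.00153 by limma). Among the 8 genes of fatty acid synthesis 2 were higher and 2 were lower. Glycolysis rose as well, with 12 of 18 enzymes higher and 2 lower (median 0.37). *LDHA*, lactate dehydrogenase A, went from 274 and 253 to 442 and 484 TPM (0.65) and *PKM*, pyruvate kinase, from 470.2 and 457 to 777 and 811 TPM (0.61). Of 77 nuclear genes for subunits of oxidative phosphorylation 40 were higher and 2 were lower, with a median of 0.29 that differed little between complexes, from 0.25 for complexes II and III to 0.30 for ATP synthase. *NDUFB2*, of complex I, rose by 0.83 and *COX7B*, of complex IV, by 0.71. Of the 13 transcripts of the mitochondrial genome 2 were higher (6 on TPM as deposited), and this genome took 2.18% and 2.07% of TPM in the parental and 2.68% and 2.79% in the resistant libraries. NRF2 targets diverged, with 7 of 16 higher and 3 lower. *NQO1*, a quinone reductase, rose from 5.18 and 4.87 to 14.7 and 16.2 TPM (1.29), and *TXN*, thioredoxin, from 56.1 and 51.9 to 93.7 and 104 TPM, whereas *SLC7A11*, which is also an ATF4 target, was the largest fall of this list.

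Subunits of the SCF ligase, which OsTIR1 joins, were higher by small amounts. All 3 tested subunits of the SCF ligase were higher, although *CUL1*, the scaffold, missed the threshold without parental library 2 (0.18, adjusted p = 0.0505 by limma) and *RBX1*, which binds the ubiquitin-conjugating enzyme, without parental library 1 (0.24, adjusted p = 0.0505 by limma). The largest of these rises was that of *SKP1*, the adaptor that holds the F-box protein, at 93.2 and 84.9 TPM in the parental and 149 and 162 TPM in the resistant libraries (0.64, adjusted p = 0.000239 by limma). *SKP1* overlaps *TCF7* on the other strand, and the sources used here do not say whether reads were counted by strand. *TCF7* did not pass the threshold (0.15, adjusted p = 0.0961 by limma). The study describes RNA levels of *SKP1*, *CUL1* and *RBX1* in both clones as similar. In the NEDD8 pathway 4 of 9 genes were higher (median 0.017), among them *CAND1*, which exchanges F-box proteins (0.34), and of the COP9 signalosome, which removes NEDD8 from cullins, 2 of 9 were higher (22.2%, median -0.0062). Of 43 proteasome genes 24 were higher and none was lower, with a median of 0.26. The 7 beta subunits of the 20S core, which hold its proteolytic sites, were all higher, whereas 2 of the 7 alpha subunits were. *POMP*, a chaperone of proteasome assembly, rose from 23.6 and 21.9 to 40.3 and 42.3 TPM (0.67) and *PSMC4*, an ATPase of the 19S cap, from 20.6 and 19.3 to 33.5 and 33.9 TPM (0.57). None of the proteasome genes changed 2-fold.

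Replication-dependent histone genes, whose transcripts lack a poly(A) tail and accumulate in S phase, fell broadly. Of 62 tested genes 48 were lower and 3 were higher, with a median of -0.69. The median lay at -0.60 and -0.82 in the 2 resistant libraries, relative to the mean of the parental libraries, so the fall was present in both and differed in size. *HIST1H3H* (chromosome 6, 27810051 to 27811300) went from 450.1 and 409.7 to 161 and 137 TPM (-1.69, adjusted p = 8.59e-05 by limma), and *HIST1H2BJ* from 812 and 881 to 302 and 295 TPM (-1.66). The 6 most abundant protein-coding genes that changed at least 2-fold were all histone genes, from *HIST2H2AA4* at 2009.7 and 1542 TPM and *HIST1H2AE* at 1491 and 1428 TPM in the parental libraries to 849 and 743 and 803 and 820.4 TPM in the resistant libraries. Falls were present outside the cluster on chromosome 6 too, in 9 of 12 genes, with a median of -0.58. The higher members, *HIST1H4L* (0.79), *HIST1H3E* (0.72) and *HIST1H4D* (0.54), were chosen after their values were seen. The calls of *HIST1H3E* and *HIST1H4D* were lost with each of the 4 libraries left out in turn (adjusted p from 0.0509 to 0.143 by limma). Histone genes are near-identical in sequence, so the division of reads between members is uncertain. Genes of DNA replication went both ways, with 8 of 30 higher and 7 lower and a median of -0.087, whereas on TPM as deposited 10 were higher and 3 lower with a median of 0.073. *CDT1*, which licenses origins, was the largest of these changes and fell from 82.8 and 70.7 to 37.5 and 34.8 TPM (-1.22), and *FEN1*, the flap endonuclease, rose by 0.49. Genes of G2 and mitosis rose, with 17 of 24 higher and none lower (median 0.29). *KIF20A*, a mitotic kinesin, rose from 15.1 and 14.9 to 26.1 and 28.1 TPM and *CCNB1*, cyclin B1, from 43.7 and 41.2 to 69.8 and 65.6 TPM. In bulk RNA, fewer cells in a phase and less RNA per cell cannot be told apart.

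Of 78 cytosolic ribosomal protein genes 57 were lower and 3 were higher, with a median of -0.31. The number of lower calls depended on the scaling, and on TPM as deposited 15 were lower and 3 higher with a median of -0.14. Lower members ranged down to *RPLP2*, which went from 742 and 713 to 573 and 533 TPM (-0.56). The 3 that rose stood out from the rest, with *RPS26* at 74.8 and 72.3 TPM in the parental and 144 and 153 TPM in the resistant libraries (0.84, adjusted p = 5.13e-05 by limma), and with the paralogs *RPL39L* (0.75) and *RPS27L* (0.54). Ribosomal protein genes have many processed pseudogenes with which reads can be shared. Of 22 nucleolar genes of ribosome biogenesis 6 were higher and 1 was lower (31.8%, median 0.13), and on TPM as deposited 11 were higher. *MYC*, a transcription factor that drives both groups, fell from 132 and 123 to 88 and 80.9 TPM (-0.75, adjusted p = 0.000394 by limma). *MYC* was lower in resistant cells of C3.2 as well, by a smaller amount (-0.29, adjusted p = 0.0279 by limma). Of 11 tested genes of the MYC and MAX network, 4 were lower and 1 was higher with a median of -0.10, whereas on TPM as deposited 1 was lower and 1 higher with a median of 0.054.

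**Figure D4:**
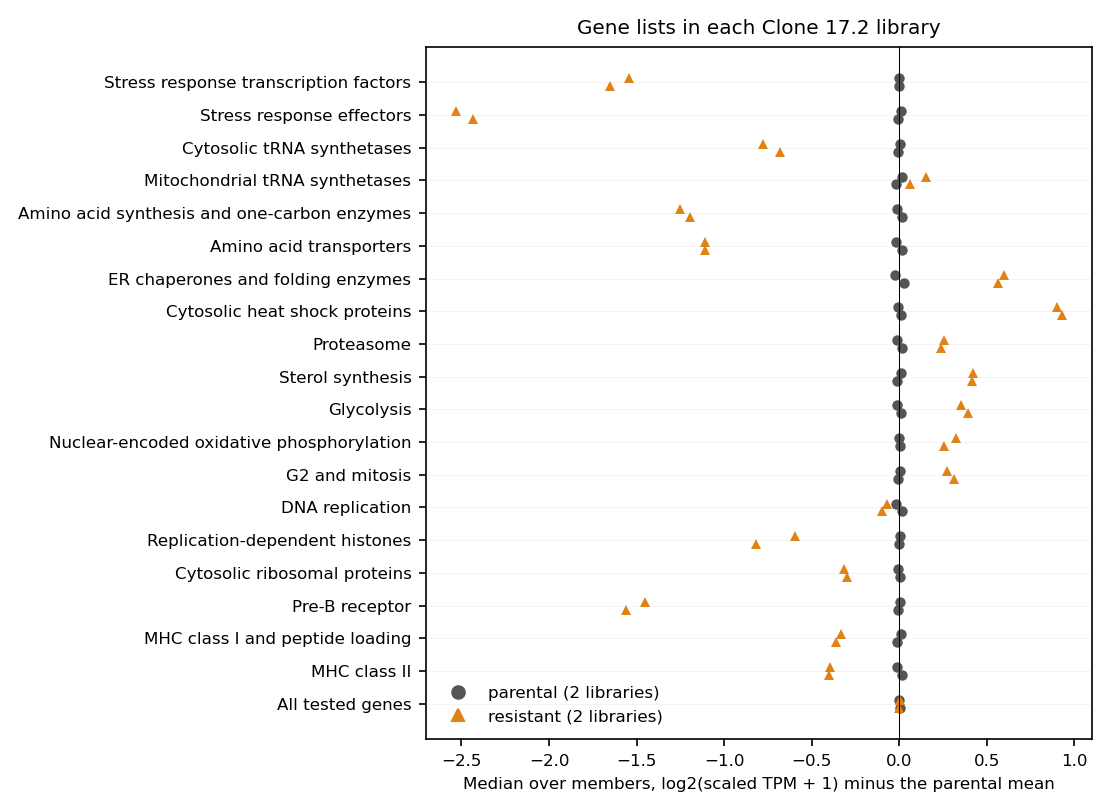
Median over the tested members of each list of log2(scaled TPM + 1) minus the mean of the 2 parental libraries, shown for each C17.2 library (gray circles parental, orange triangles resistant). Of the lists drawn, the histone genes show the widest gap between the 2 resistant libraries, at -0.60 and -0.82, and all tested genes stay near 0.

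The pre-B receptor was lower in resistant cells. Of 7 tested receptor genes 6 were lower and none was higher, with a median of -1.51. One of the 6 was *RAG2* (-0.97), a subunit of the V(D)J recombinase placed in the same list and chosen after its values were seen. *VPREB3* (chromosome 22, 23752743 to 23754425), a chaperone of the receptor, went from 57.1 and 50.6 to 5.29 and 4.48 TPM (-3.35, adjusted p = 3.77e-05 by limma). *IGLL1* (chromosome 22, 23573125 to 23580302), which encodes the lambda 5 chain, went from 89.6 and 80.6 to 20.1 and 20.5 TPM (-2.16), and *CD79B*, a signaling chain, from 14.4 and 12.2 to 4.61 and 4.33 TPM (-1.51). *CD79A*, its partner, fell less, from 175 and 163 to 144 and 139 TPM (-0.42). *VPREB1*, chosen after its values were seen, was the exception at 82 and 77.8 TPM in the parental and 79.3 and 78.9 TPM in the resistant libraries (adjusted p = 0.0681 by limma). Its call depended on the setting. *VPREB1* was called lower with quantile normalization (-0.18, adjusted p = 0.0299 by limma) and with the 4 C17.2 libraries alone (-0.17, adjusted p = 0.0402 by limma). Of 9 signaling genes behind the receptor 6 were lower and 1, the phosphatase gene *PTPN6* (0.53), was higher. The transcription factors of the B lineage went both ways, with 10 of 28 lower and 4 higher and a median of -0.098, whereas on TPM as deposited 6 were lower and 7 higher with a median of 0.060. *SPI1*, or PU.1, went from 22.4 and 18.3 to 11.6 and 9.85 TPM (-1.01), *BCL6*, a repressor, from 13.6 and 14.3 to 7.61 and 7.3 TPM (-0.96) and *POU2AF1*, a B-cell coactivator, from 24.6 and 22.6 to 15 and 15.2 TPM (-0.77). *PAX5* and *EBF1* were not called, with log2 fold changes of 0.018 and -0.087. Of 19 tested surface antigens of leukemia 10 were lower and 2, *CD69* and *CD52*, were higher, and on TPM as deposited 5 were lower and 3 higher. *CD52*, the target of alemtuzumab, rose from 9.88 and 9.91 to 24.4 and 27.9 TPM (1.16, adjusted p = 0.00235 by limma), while *TNFRSF13C*, the receptor for BAFF, fell from 29.5 and 28.5 to 12.2 and 11.4 TPM (-1.37).

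Genes of both classes of MHC were mostly lower. Of 14 genes of class I and its peptide loading 9 were lower and 2, *CALR* and *PDIA3*, were higher. Those 2 are the chaperones counted above. *HLA-E* went from 129.6 and 121 to 90.9 and 87.6 TPM (-0.64). Of 11 class II genes 9 were lower and none was higher, with a median of -0.40, among them *CIITA*, the master regulator of the class, at 69.5 and 67.6 TPM in the parental and 55.3 and 54.7 TPM in the resistant libraries (-0.47, adjusted p = 0.000924 by limma). *HLA-DOA*, a modulator of peptide exchange, fell by 0.60 on the log2 scale and *HLA-DQB1* by 0.48. The HLA genes are highly polymorphic and alike, and reads were aligned to one reference, so levels of single members are uncertain. Interferon-stimulated genes leaned the same way, with 8 of 22 lower and 3 higher (median -0.23). On TPM as deposited 6 of them were lower and 5 higher, with a median of -0.14. On that scale class I had 6 lower and 2 higher genes, and class II had 6 lower and none higher. *XAF1*, a pro-apoptotic factor, fell from 48.4 and 49.7 to 18.4 and 19.9 TPM (-1.47) and *IRF1*, an activator of *CIITA* and class I genes, from 45.7 and 38.4 to 24.1 and 22.5 TPM (-0.98).

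Few markers of other cell types passed the filter. Of 10 T-cell markers 1 passed the filter, *LCK*, which precursor B cells also express, at 30.2 and 30.2 TPM in the parental and 27.2 and 27.1 TPM in the resistant libraries. Of 8 NK-cell markers 2 passed it, and the summed level of all 8 lay between 9.73 and 12.1 TPM in parental and between 17.6 and 17.8 TPM in resistant cells. *NKG7*, a granule protein, made up most of it and rose by 0.51, a call lost without parental library 2 (0.45, adjusted p = 0.0532 by limma). Of 10 myeloid markers 3 passed it, with sums between 4.57 and 5.14 TPM and between 3.4 and 7.36 TPM, and *S100A8* and *S100A9*, chosen after their values were seen, were at 0 in all libraries but resistant library 2, at 0.49 and 0.81 TPM. The list of kidney, epithelial and stromal markers held *COL1A1*, a collagen gene that rose from 2.97 and 2.63 to 7.45 and 6.5 TPM (0.92, adjusted p = 0.00327 by limma), whereas *COL1A2* and *COL3A1*, other collagens of stromal cells, were at 0 throughout. T and NK cells also use *TBX21*, whose rise went with that of *NKG7* and of the summed NK-cell markers, and the part of such cells in it was not tested.

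Immediate early genes, the first to respond to growth factors, were higher in part. Of 11 tested 5 were higher and none was lower. *FOS* rose from 5.96 and 3.52 to 15.8 and 16.8 TPM (1.47, adjusted p = 0.00181 by limma), *FOSB* from 0.54 and 0.47 to 3.44 and 3.39 TPM (1.42) and *EGR1* as given above. Of 11 genes that dampen ERK signaling 2 were higher and 1 was lower, a called share of 27.3%. Targets of p53 went both ways, with 7 of 20 higher and 4 lower. *SESN1*, a sestrin, rose from 13.8 and 12.5 to 25.1 and 28.7 TPM and *TIGAR*, a regulator of glycolysis, from 1.69 and 1.75 to 4.17 and 4.45 TPM. *BBC3*, which encodes the pro-apoptotic PUMA, fell from 4.89 and 4.2 to 1.03 and 1.35 TPM (-1.42). In the BCL2 family, 3 of 8 tested effector or BH3-only genes fell, *BBC3* with *PMAIP1*, which encodes NOXA, from 28 and 27.3 to 15.7 and 17.7 TPM (-0.85), and *BMF* (-0.65). *MCL1*, a guardian against apoptosis, rose from 45.6 and 40.9 to 65.6 and 68.8 TPM (0.47). Of 26 genes of double-strand break repair, the repair that Zeocin damage calls on, 5 were higher and 2 were lower, a called share of 26.9% beside 28.1% of all tested genes.

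Several lists close to the biology of CTCF and of the KMT2A rearrangement were called at about the rate of all genes (28.1%) or below it. The list of imprinted genes and named CTCF-insulated loci was called above that rate. Of 19 tested genes of CTCF and cohesin 4 were higher and 2 were lower (31.6%). The largest change was that of *STAG1*, a cohesin subunit, at 21.5 and 20.1 TPM in the parental and 37.2 and 41.1 TPM in the resistant libraries (0.72, adjusted p = 0.000266 by limma). None of 4 tested clustered protocadherins, a family whose promoter choice depends on CTCF, passed the threshold. Of 10 tested *HOXA* genes, *MEIS1* and *PBX3*, 1 passed it. That gene, *PBX3*, fell from 75.8 and 65.3 to 48.6 and 50.9 TPM (-0.65, adjusted p = 0.0162 by limma), and the call was lost with each of the 4 libraries left out in turn, at -0.71 to -0.59 and adjusted p values from 0.0719 to 0.112 by limma. *HOXA9* changed by 0.057 and *MEIS1* by 0.081. Of 16 genes of the KMT2A, menin and elongation complexes 1 was higher and 4 were lower (31.2%), whereas on TPM as deposited 4 were higher and none was lower. The largest change was that of *HEXIM1*, an inhibitor of the elongation factor P-TEFb, which rose by 0.73. Among 396 zinc finger genes 62 were higher and 27 were lower (22.5%), while on TPM as deposited 145 were higher and 14 lower, and *ZNF516* fell the most, from 8.83 and 6.92 to 2.89 and 2.56 TPM (-1.36). Of 8 tested imprinted genes and named CTCF-insulated loci 4 were lower and none was higher (50%). Among the lower ones were *PLAGL1* (-0.78) and *MEST*. *MEST* was at 1.26 and 1.21 TPM in the parental libraries and listed at 0 in both resistant libraries. Writers and readers of DNA methylation and repressive chromatin changed in 5 of 16 genes, 4 of them lower, whereas on TPM as deposited 4 were higher and 1 lower, with *UHRF1*, which recruits the maintenance methyltransferase, lower by 0.46 on the log2 scale. Some further lists showed no common direction after scaling. They were nucleotide synthesis (3 of 18 higher, 2 lower, 27.8% called) and autophagy (6 of 24 higher, 4 lower, 41.7%). The same held for hypoxia (1 of 8 higher, 1 lower, 25%) and zinc response (3 of 7 higher, 2 lower, 71.4%). On TPM as deposited, nucleotide synthesis had 8 higher and none lower, autophagy 9 higher and 2 lower and zinc response 3 higher and 1 lower. In the zinc response list *MT1F*, a metallothionein, rose by 0.76.

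Among non-coding genes, the largest values belonged to short multicopy RNAs, for which a gene-level TPM is least certain. *RNU6-33P*, a copy of the U6 spliceosomal RNA, was listed at 0 in both parental libraries and at 307 and 303 TPM in the resistant libraries, and *RNU6-446P* and *RNA5SP221* were likewise listed at 0 in both parental libraries. Of the 4 largest falls 3 were entries annotated as RF00019, a Y RNA family, and listed at 0 in both resistant libraries. Reads of such genes can be assigned to any of their copies. *RN7SL1*, the RNA of the signal recognition particle and a large part of the misc_RNA share, was chosen after its values were seen. It went from 55296 and 75568 TPM in the parental to 33809 and 23374 TPM in the resistant libraries (-1.36, adjusted p = 0.0132 by limma), a call lost without either parental library or resistant library 2 (adjusted p from 0.0727 to 0.157 by limma). Of 179 tested snoRNA genes 4 were higher and 10 were lower, and of 1849 tested lncRNA genes 83 were higher and 227 were lower. These are called shares of 7.82% and 16.8%, below the 28.1% of all tested genes.

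The same model gave the change in C3.2, whose resistant cells went through the same treatment and carry the missense change in the tag. There 1764 of the 15253 genes (11.6%) passed the threshold, and the change differed between the clones for 1561 genes (10.2%), by a limma test of the difference with Benjamini-Hochberg adjustment. The titles number the libraries of the clones in 2 separate series, what the series mark is not given in the sources used here, and it cannot be told apart from clone. The count fell to 548 and 599 without parental library 1 or 2 of C3.2, to 567 and 599 without parental library 1 or 2 of C17.2 and to 903 and 777 without its resistant library 1 or 2. Of the 20 stress genes 9 fell in C3.2 as well, where the effectors had a median of -0.64 beside -2.48 in C17.2 and the difference passed the test for 14 of 20 genes of the list. *ATF5* and *TRIB3* were examples, at -0.26 and -0.22 in C3.2 with adjusted p values of the difference between clones of 0.000178 and 0.000135 (limma). In these genes the clones lay farther apart before selection than after it. *ATF5* stood at 22.7 and 21.7 TPM in parental and 21.2 and 17.4 TPM in resistant cells of C3.2, beside 221 and 208 and then 28.1 and 27.2 TPM in C17.2, and *TRIB3* stood at 3.47 and 4.25 and then 3.34 and 3.3 TPM. For *WARS* the values in C3.2 were 27.9 and 27 TPM and then 23.4 and 26.1 TPM, against 206 and 192 and then 26.7 and 30.3 TPM in C17.2. Over the effectors the level in C17.2 minus that in C3.2 had a median of 1.35 on the log2 scale in parental and 0.023 in resistant cells, a description with no test. *STC2* and *CHAC1* fell in C3.2 as well, by 3.15 and 2.69 on the log2 scale. Heat shock and folding genes had medians of 0.041 and 0.020 in C3.2 beside 0.92 and 0.56, and the difference passed the test for 9 of 13 and 12 of 17 genes. In C3.2 3 heat shock genes were higher, among them *HSPA1A* (0.68) and *HSPA1B* (0.96), and for *HSPA1B* the difference of 0.23 did not pass the test (95% confidence interval -0.13 to 0.59, adjusted p = 0.373 by limma). In parental cells the clones lay apart, with levels in C17.2 minus C3.2 at medians of -0.79 for heat shock and -0.48 for folding genes there and of 0.011 and 0.009 in resistant cells. Medians of sterol synthesis were 0.42 in C17.2 and -0.38 in C3.2, with a difference past the threshold for 14 of 19 genes, and those of MHC class II were -0.40 and 0.25, with a difference for 10 of 11 genes. For sterol synthesis the level in C17.2 minus that in C3.2 was -0.60 in parental and 0.15 in resistant cells, and for MHC class II it was 0.12 and -0.59. Some other lists had medians of opposite sign with one of them near 0, such as oxidative phosphorylation at 0.29 and -0.036. *HMGCS1* rose in C17.2 and fell by 0.64 in C3.2, and *CIITA* fell in C17.2 and rose by 0.33 in C3.2. *CD52* likewise changed by -0.67 in C3.2. The pre-B receptor was at -1.51 and -1.71 and ribosomal protein genes at -0.31 and -0.30, with a difference past the threshold for 4 of 7 and 3 of 78 genes. *IGLL1* fell by 2.16 in C17.2 and by 2.35 in C3.2, a difference of 0.19 that did not pass the test (95% confidence interval -0.068 to 0.44, adjusted p = 0.312 by limma). For *CTCF* the difference was 0.11 (interval -0.036 to 0.25, adjusted p = 0.306 by limma). In 131 genes the changes of the clones were both past the threshold and opposite in sign.

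**Figure D5:**
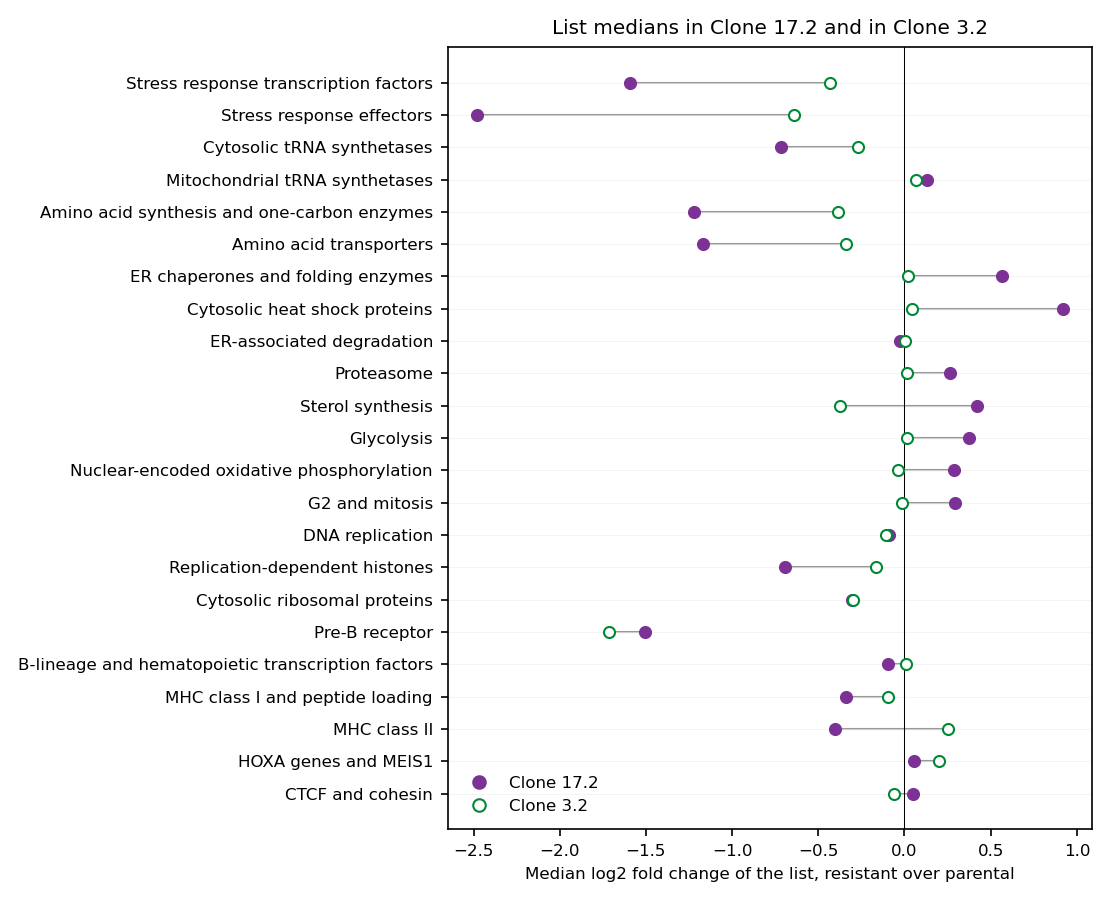
Median log2 fold change of resistant over parental cells for the tested members of each list in C17.2 (filled purple) and C3.2 (open green), joined by a line. The medians of stress and amino acid lists lie farther from 0 in C17.2, those of sterol synthesis (0.42 and -0.38) and MHC class II (-0.40 and 0.25) have opposite signs, and those of the pre-B receptor (-1.51 and -1.71) and ribosomal proteins (-0.31 and -0.30) lie close together.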

How the data were processed

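RNA-seq of ribosome-depleted total RNA was available for 8 libraries in 4 groups of 2, mapped to groups by their titles. The table deposited by the authors holds TPM per gene. Per the study's methods and processing notes, the authors trimmed reads with Trim Galore 0.6.3, aligned them to GRCh38 with STAR 2.7.9a and quantified genes with RSEM 1.3.1. Labels and methods differ on whether reads were single or paired. Sequencing depth is unknown, and the 92 ERCC sequences were at 0.

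Genes with at least 1 TPM in at least 1 of the 4 C17.2 libraries were kept (15253). Scaling used trimmed means (30% of ratios and 5% of means trimmed at each end), coded here. limma 3.58.1 (R 4.3.3, intensity trend) was fitted to log2(scaled TPM + 1) over all 4 groups, which share 1 estimate of the spread. Contrasts were resistant over parental in C17.2, the same in C3.2, and their difference, with Benjamini-Hochberg adjustment and a threshold of 0.05. On simulated data with 200 genes changed by 1 on the log2 scale among 15253, the C17.2 comparison recovered 87% of them, with 2.79% false calls. The changed genes were drawn without those of lowest TPM, and noise was independent between libraries. Far fewer genes were changed than were called in the data, so these rates may not carry over.

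Genes were named by a fixed rule. It took the 15 largest protein-coding rises and falls with at least 5 TPM in the higher group and no overlap of groups, the 4 largest non-coding rises and falls, the 4 largest changes of each list, the genes the study names, the 6 most abundant genes changed at least 2-fold and the 5 largest differences between clones. Of these, genes whose call was lost with a library left out were mostly not given values. Some genes the rule covers are not reported here. Others are marked as chosen after their values were seen. The members and lists were chosen with earlier results of these data known. Alternatives were TPM as deposited, rescaling over protein-coding genes, quantile normalization, a pseudocount of 0.1, other filters, no intensity trend, the 4 C17.2 libraries alone and each library left out. Positions and the *CTCF* coding sequence came from Gencode release 44 on GRCh38, a later release than the authors' Gencode 31, and promoters from RefSeq (GRCh38.p14).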

Additional observations from a re-analysis of the deposited data

Results flagged for a closer look

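The change in C17.2 differed from that in C3.2 for 1561 of 15253 genes (10.2%) at an adjusted p under 0.05 (limma test of the difference, Benjamini-Hochberg adjustment), and these differences were looked at again for each gene named in the text. Values below are the log2 fold change in C17.2 minus that in C3.2, over 2 libraries a group. Of the 99 differences named, 60 stayed past the threshold under each alternative setting that gave a value for them. The rest missed it under some setting. These were *AK5*, *ATF4*, *BBC3*, *CARS*, *CCNB1*, *CD79B*, *CHAC1*, *COX7B*, *DDIT3*, *ERN1*, *FGFBP2*, *GPT2*, *HEXIM1*, *HIST2H2AA4* and *HSPB1*. They also included *IRF1*, *LDHA*, *MCL1*, *MEST*, *MYC*, *NDUFB2*, *NELL2*, *NQO1*, *PDIA3*, *PHYHD1*, *PKM* and *PMAIP1*. The remaining ones were *PSMC4*, *RAG2*, *RPLP2*, *RPS27L*, *SDF2L1*, *STAG1*, *STC2*, *UHRF1*, *VPREB1*, *VPREB3*, *XAF1* and *ZNF516*. Clone cannot be told apart in any of them from what the separate number series in the titles mark.

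Genes of the stress response lay below 0, with *TRIB3* at -3.29, *ATF5* at -2.81, *INHBE* at -2.34, *DDIT3* at -1.54, *SESN2* at -1.43, *CHAC1* at -1.14, *STC2* at -0.89 and *ATF4* at -0.42. Amino acid enzymes and transporters followed, with *MTHFD2* at -1.60, *ASNS* at -1.42, *PSAT1* at -1.26, *GPT2* at -0.93, *SLC6A9* at -1.93, *SLC7A11* at -1.53, *SLC7A5* at -1.08 and *SLC3A2* at -0.64. Among synthetases *WARS* was at -2.71, *CARS* at -1.24, *GARS* at -1.18 and *SARS* at -1.09. *CBSL* was at -1.36. *OAT* was the exception in these lists. It lay at 11.1 and 11.5 TPM in parental and 17.4 and 19.8 TPM in resistant cells of C17.2, while it changed by -2.13 in C3.2, a difference of 2.65.

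Chaperones lay above 0, with *SDF2L1* at 1.52, *CALR* at 1.16, *HSP90B1* at 1.07, *PDIA3* at 0.99, *HSPA5* at 0.88, *HSPB1* at 1.12, *HSPA1A* at 0.94, *HSP90AA1* at 0.92, *DNAJA1* at 0.90 and *HSPA8* at 0.84, whereas *ERN1* at -1.75, *HERPUD1* at -1.51 and *EDEM1* at -0.73 lay below it. Metabolic genes were above 0 as well. These were *HMGCS1* at 1.43, *IDI1* at 0.99 and *SQLE* at 0.84 in sterol synthesis, *LDHA* at 0.76 and *PKM* at 0.38 in glycolysis, *COX7B* at 0.98 and *NDUFB2* at 0.61 in oxidative phosphorylation, and *NQO1* at 0.74 and *TXN* at 0.68 among NRF2 targets. In the degradation machinery the values were 0.66 for *SKP1*, 0.53 for *CAND1*, 0.79 for *POMP* and 0.30 for *PSMC4*. These lists lay lower in parental cells of C17.2 than in those of C3.2. The level in C17.2 minus that in C3.2 had a median of -0.415 for SCF subunits in parental and 0.018 in resistant cells. For all proteasome genes these medians were -0.278 and -0.073, a description with no test.

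Cell cycle and ribosome genes were mixed. *HIST1H3H* was at -1.43, *HIST2H2AA4* at -1.43, *HIST1H2BJ* at -1.24, *HIST1H2AE* at -0.76 and *CDT1* at -0.81, against 0.58 for *HIST1H4L*, 0.51 for *FEN1*, 0.62 for *KIF20A* and 0.56 for *CCNB1*. *RPLP2* was at -0.54, *RPS26* at 0.64, *RPS27L* at 0.72 and *MYC* at -0.46. B-lineage genes were mixed too, with *VPREB3* at -1.0, *CD79B* at -0.48, *VPREB1* at 0.34, *RAG2* at 1.02, *TNFRSF13C* at -1.25 and *CD52* at 1.83. Genes of antigen presentation and interferon response lay below 0, namely *HLA-DOA* at -0.90, *CIITA* at -0.80, *HLA-DQB1* at -0.73, *HLA-E* at -0.56, *XAF1* at -0.61 and *IRF1* at -0.53.

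Among the largest rises and falls, *TBX21* was at 2.15, *AK5* at 1.68, *EGR1* at 1.46, *S100A4* at 1.39, *ZFAND4* at 1.28, *CD69* at 1.20, *FGFBP2* at 1.14, *TIMP1* at 1.05, *NELL2* at 1.03 and *FRMPD1* at 0.93, and *AC022506.1* was at -4.28, *SPNS3* at -2.89, *PAG1* at -2.37 and *PHYHD1* at -1.69. Among apoptosis genes *BMF* was at -1.08, *BBC3* at -0.76, *PMAIP1* at -0.43 and *MCL1* at 0.33. In the remaining lists *MEST* was at -1.04, *ZNF516* at -0.76, *UHRF1* at 0.37, *STAG1* at 0.44 and *HEXIM1* at 0.52. The short RNA genes *RNU6-33P*, *RNU6-446P* and *RNA5SP221*, listed at 0 in parental cells of C17.2, were at 8.07, 4.18 and 3.99, values that depend on the pseudocount.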

How the results depend on the processing

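Among the 140 genes given values in the text, 131 passed the threshold in C17.2, and 118 genes kept their call under all 16 alternative settings. These genes were chosen in part for stable calls, and over all genes 53.6% to 63.6% of the calls were kept with 1 library of C17.2 left out and 79% on TPM as deposited. The count of changed genes lay between 2434 and 4621 when single libraries were left out, and was lowest, at 2434, 2586 and 2695, without parental library 1, parental library 2 or resistant library 2 of C17.2. The share of higher genes was 64.6% when TPM were rescaled over protein-coding genes and 75.1% on TPM as deposited, and it ranged from 43.3% to 49.4% with a library left out. Genes changed at least 2-fold numbered 757 with a pseudocount of 0.1 and ranged from 452 to 481 with a library left out. The difference between clones ranged from 548 to 1803 genes, with 567, 599, 903 and 777 without parental library 1, parental library 2, resistant library 1 or resistant library 2 of C17.2 and 548 and 599 without parental library 1 or 2 of C3.2. With a library left out, the remaining one is assumed to vary like the other groups. The causes were not tested, beside the smaller number of libraries.

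On TPM as deposited, which moves the median of all tested genes to 0.14, list medians turned from below to above 0 for all tRNA synthetases (0.10, and 0.031 after rescaling over protein-coding genes), B-lineage transcription factors (0.060), DNA methylation and chromatin writers (0.078), DNA replication (0.073), the KMT2A, menin and elongation complexes (0.069), the MYC network (0.054) and p53 targets (0.094). Genes that had not passed the threshold also changed sign there, *EBF1* to 0.073, *EIF2AK1* to 0.084, *EIF2AK4* to 0.038, *MTHFD1* to 0.0042 and *YARS2* to 0.0004. Some calls were gained under other settings. *VPREB1* was called lower with quantile normalization (-0.18), and *MEIS1* was called higher after rescaling over protein-coding genes (0.17, adjusted p = 0.0469 by limma). *EIF2AK1* was at 0.011 after rescaling over protein-coding genes and between -0.15 and 0.0029 with a library left out, and *PAX5* lay between -0.035 and 0.071 with a library left out. No paired analysis was possible because the labels give parental and resistant libraries no shared number. Depth is unknown, so counting error of genes with low TPM could not be given.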

Other observations

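Neighbors on a chromosome were compared as a description. Of 1337 pairs of adjacent protein-coding genes that had both changed in C17.2, 757 (56.6%) had changed in the same direction, and 55.7% had done so without the histone genes. Over all tested protein-coding genes 1928 were higher and 1815 were lower. Pairs that are not adjacent were not compared, so what position adds to these shares was not tested. *CBS* and *CBSL*, chosen after their values were seen, are near-identical entries for cystathionine beta-synthase, the enzyme that condenses homocysteine with serine. *CBS* was at 1.64 and 1.76 TPM in the parental and 0.04 and 0 TPM in the resistant libraries, and *CBSL* at 4.11 and 3.82 and 0.01 and 0.02 TPM, so both entries went to near 0 however reads were divided between them. The summed level of the histone list was between 32468 and 35070.1 TPM in parental and between 22925 and 24001 TPM in resistant cells, and that of the ribosomal protein list between 68138 and 71951 TPM and between 61757 and 63487 TPM.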
